A study of Mus musculus with 8 samples.

Results

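The carriers described here are 8 transporters through which mouse hepatocytes exchange organic ions, bile acids and nucleosides with blood or bile, Slco1a1, Slco1a4, Slco1b2, Slco2b1, Slc10a1, Slc22a7, Slc47a1 and Slc29a1. They were taken as every probe set that the platform annotation pairs with exactly 1 of these genes, by current or older symbol. This gave 13 of the 22690 probe sets on the array and 7 of the 8 genes, with 5 probe sets for Slco1b2, 2 each for Slco1a1 and Slc10a1 and 1 each for Slco1a4, Slc22a7, Slc47a1 and Slc29a1. Slco2b1 is not analysed here.

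RNA of whole liver was measured on 1 Affymetrix expression array per animal in 4 wild-type (WT) mice and in 4 mice labelled TrxR1/Gsr-null, that is, null for thioredoxin reductase 1 and glutathione reductase, the enzymes that keep thioredoxin and glutathione reduced in the cytosol. Both groups were female, 4 weeks old and on the C57BL/6J background, received no treatment, and gave their livers in the late morning. The labels do not say how the null alleles were made, which part of either gene is missing or in which cells. Values are log2 expression after GCRMA, an array summary that corrects for background, and a difference is the mean of the TrxR1/Gsr-null livers minus the mean of the WT livers.

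Organic anion transporting polypeptides, the products of the Slco genes, sit in the sinusoidal membrane of hepatocytes and take up bile acids, steroid conjugates, thyroid hormones and many drugs from blood without sodium. Slc10a1 encodes the sodium-taurocholate cotransporter, the main route by which conjugated bile acids return to hepatocytes. Slc22a7 encodes the organic anion transporter Oat2, and Slc29a1 the equilibrative nucleoside transporter Ent1. Slc47a1 encodes Mate1, a proton exchanger that moves organic cations out into bile, so it is an exporter by its known role and not an uptake carrier.

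Slco1b2, Slco1a4 and Slco1a1 stand in that order in a single cluster on chromosome 6. The bases before their start sites are shown because these paralogous neighbours had unlike values in the same livers. They are from RefSeq, build GRCm38.p6, each read 5′ to 3′ on the strand of its gene and ending where the annotated gene begins. Capitals mark letters matched by any of 7 short motifs named after the sequences.
Slco1b2, chr6:141629268-141629451, plus strand: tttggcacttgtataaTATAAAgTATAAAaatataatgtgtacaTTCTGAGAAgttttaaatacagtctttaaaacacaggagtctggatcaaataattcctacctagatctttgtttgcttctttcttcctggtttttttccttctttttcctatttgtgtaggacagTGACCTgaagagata
Slco1a4, chr6:141856285-141856470, minus strand: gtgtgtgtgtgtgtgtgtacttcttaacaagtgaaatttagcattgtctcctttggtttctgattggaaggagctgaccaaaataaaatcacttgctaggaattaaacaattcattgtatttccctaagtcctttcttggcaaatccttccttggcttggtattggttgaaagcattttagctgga
Slco1a1, chr6:141946963-141947212, minus strand: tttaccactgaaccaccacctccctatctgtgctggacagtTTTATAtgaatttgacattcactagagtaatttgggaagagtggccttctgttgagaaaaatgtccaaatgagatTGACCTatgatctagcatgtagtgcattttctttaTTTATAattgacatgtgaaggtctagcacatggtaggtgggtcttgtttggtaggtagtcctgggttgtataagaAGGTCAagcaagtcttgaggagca

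The motifs were searched on both strands of the 250 bases before each listed start, overlaps between motifs allowed, and the share of all 32851 such windows in the table that hold each one is given. The nuclear receptor hexamer AGGTCA is in 14% of the windows, the antioxidant response element core TGACNNNGC in 10.2%, the STAT element TTCNNNGAA in 7.02%, the C/EBP element TTGCNNAA in 9.56%, the TATA box TATAAA in 12.4%, the E-box CACGTG in 6.02% and the HNF1 core GTTAAT in 6.43%. The window of Slco1a1 holds AGGTCA or its reverse complement at 2 places and TATAAA at 2, that of Slco1b2 holds AGGTCA, TTCNNNGAA and GTTAAT once each and TATAAA at 2 places, with GTTAAT in the part not shown, and that of Slco1a4 holds none of the 7. The 66 bases nearest the start of Slco1b2 and the 64 nearest that of Slco1a4 lie within the annotated genes and are not shown. These matches describe letters only.

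Of the 7 measured carriers, 6 had lower means in TrxR1/Gsr-null liver, as did 3008 of all 7534 tested genes. Of the carriers 2 were called lower, Slco1a4 and Slc29a1. Calls rest on a limma fit over 7534 genes, 1 probe set each, with 0.05 as the limit of the adjusted p. Over all these genes 2.15% were called lower and 4.47% higher, 6.62% in all, with higher calls making up 67.5% of calls, or 53.6% after quantile normalization. No carrier was called higher, and none had a higher mean at an unadjusted limma p below 0.05, while 5 carriers had a lower mean at that level, which 22.9% of all tested genes reached in either direction. The TrxR1/Gsr-null values of 4 carriers, Slco1a4, Slc10a1, Slc22a7 and Slc29a1, lay wholly below the WT values, as did those of 5.84% of all tested genes. The median difference of the 7 carriers was -1.71, beside 0.10 over all tested genes. Taken as single probe sets, 2 of the 13 were called lower and none higher, and 4 were wholly below WT, against 0.888% called lower, 2.97% called in all and 4.37% wholly below among 22626 probe sets tested without a filter on low values. In bulk liver RNA, fewer cells of a type and less RNA per cell cannot be told apart.

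**Figure D1:**
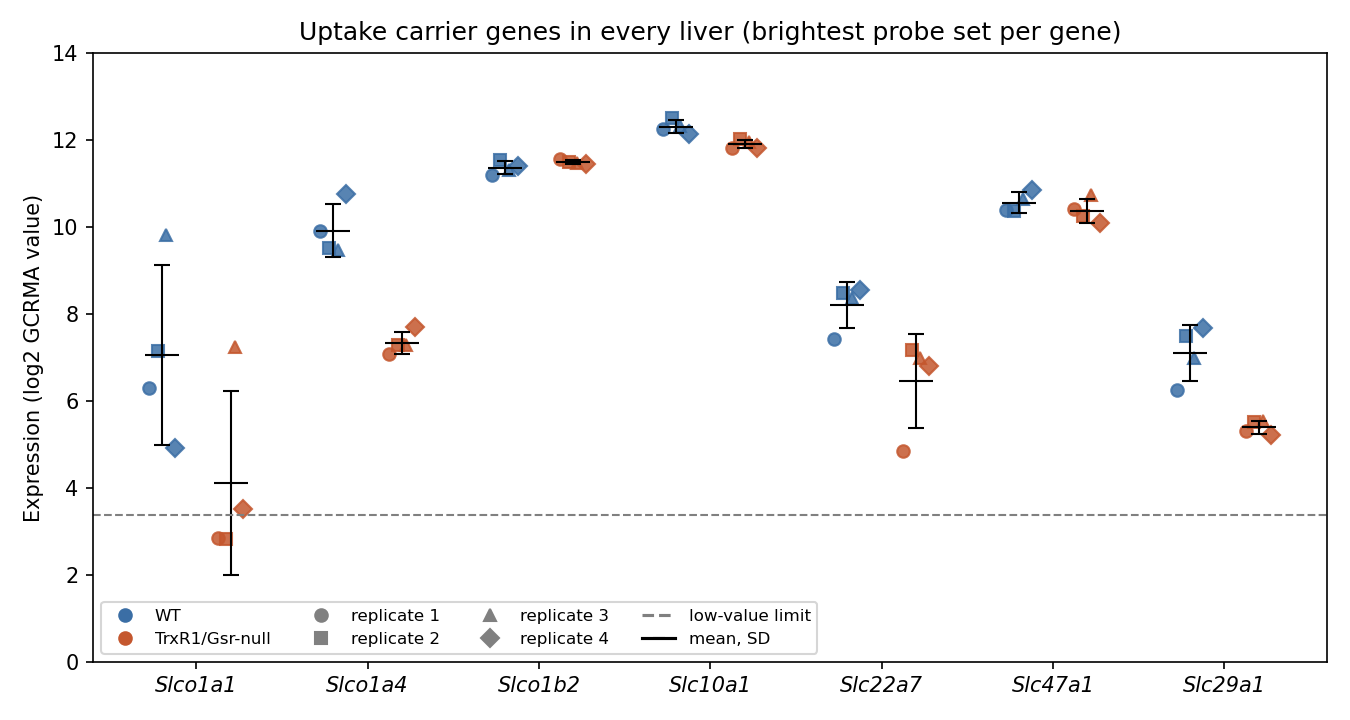
Log2 expression of the 7 measured carriers in each of 8 livers (brightest probe set per gene, 4 WT in blue and 4 TrxR1/Gsr-null in orange; the marker shape gives the replicate number, black bars the mean and SD, and the dashed line the low-value limit of 3.38). The groups are apart for Slco1a4, Slc10a1, Slc22a7 and Slc29a1, and Slco1a1 spreads most widely within each group.

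The arrays themselves had medians of 3.56 to 3.78, and the middle of the distribution was narrower in WT replicate 3 (interquartile range 3.97) and WT replicate 4 (3.74) than on the remaining 6 arrays (4.31 to 4.44). Of the targeted genes, Gsr was 2.23-fold lower at its brighter probe set (limma adjusted p = 0.00336 over all probe sets), and Txnrd1 was 4.31-fold higher at its only probe set above the low-value limit (adjusted p = 0.000156). Since the missing part of each gene is not given, whether these probe sets bear on the labels cannot be said. Hepatocyte markers, which include albumin and transthyretin, averaged 12.85 to 13.04 over 13 genes in the WT livers and 12.3 to 12.76 in the TrxR1/Gsr-null livers. These ranges did not overlap. A lower mean was seen for 12 of the 13 markers (median difference -0.32), beside 3008 of all 7534 tested genes. Of the markers 1, Pck1, was called lower, though not without WT replicate 2 or 3 or without TrxR1/Gsr-null replicate 1 or 2. The shift was not particular to hepatocyte markers. Of 7 Kupffer cell and macrophage markers 5 had lower and 2 higher means (median difference -0.49). Of 8 endothelial markers 7 were lower and 1 higher (-0.38), and of 6 tested stellate markers 5 were lower and 1 higher (-0.16). Of the 2 tested bile duct and 2 tested erythroid markers 1 each was higher. The part of these shifts in the carrier differences was not tested. Markers of the kidney tubule, another site of several of these carriers, averaged 2.27 to 2.95 in WT and 2.22 to 2.67 in TrxR1/Gsr-null liver, and none of the 7 passed the filter on low values.

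Slco1a4, which encodes Oatp1a4, a carrier of bile acids and cardiac glycosides that is known to be inducible through the xenobiotic receptor PXR, was the carrier with the smallest p. Its values were 9.92, 9.53, 9.46 and 10.77 in WT replicates 1 to 4 and 7.07, 7.28, 7.30 and 7.69 in TrxR1/Gsr-null replicates 1 to 4. The highest TrxR1/Gsr-null liver was thus well below the lowest WT liver, and WT replicate 4 was the highest of all. The mean fell from 9.92 ± 0.60 to 7.33 ± 0.26 (SD, n = 4 each), 5.99-fold lower, with a log2 difference of -2.58 ± 0.29 (SE) and a limma adjusted p of 0.000704. Among the 7534 tested genes, 10 had a more negative difference. The call held in each of the 22 alternative settings, with adjusted p from 3.23e-05 to 0.0426, and the fold was 4.93 to 6.66 with 1 array left out.

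Its neighbour Slco1b2, which encodes Oatp1b2, the liver's broad carrier of bilirubin conjugates, bile acids and statins, was at 11.19, 11.55, 11.32 and 11.41 in the WT livers and 11.56, 11.50, 11.48 and 11.44 in the TrxR1/Gsr-null livers. The groups overlapped. The difference was 0.13 with a 95% interval from -0.23 to 0.49 (limma adjusted p = 0.688), so the data leave room for a change of that size in either direction. The second bright Slco1b2 probe set, 1452494_s_at, averaged 10.95 ± 0.43 in WT and 10.93 ± 0.19 in TrxR1/Gsr-null liver (SD, n = 4 each).

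The other Slco1b2 probe sets were dimmer. Probe set 1427826_a_at was at 5.72, 6.02, 7.98 and 6.39 in WT and between 6.93 and 7.12 in TrxR1/Gsr-null liver. WT replicate 3 was the high array there, and without it the difference was 0.96 in place of 0.48, called higher with a limma adjusted p of 0.0431. Probe sets 1427825_at and 1452569_at reached at most 3.89 and 2.75, the latter below the low-value limit of 3.38 on all 8 arrays, where values say little about level. So the 5 probe sets of this gene do not give 1 value, and the 2 brightest showed differences of 0.13 and -0.01.

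**Figure D2:**
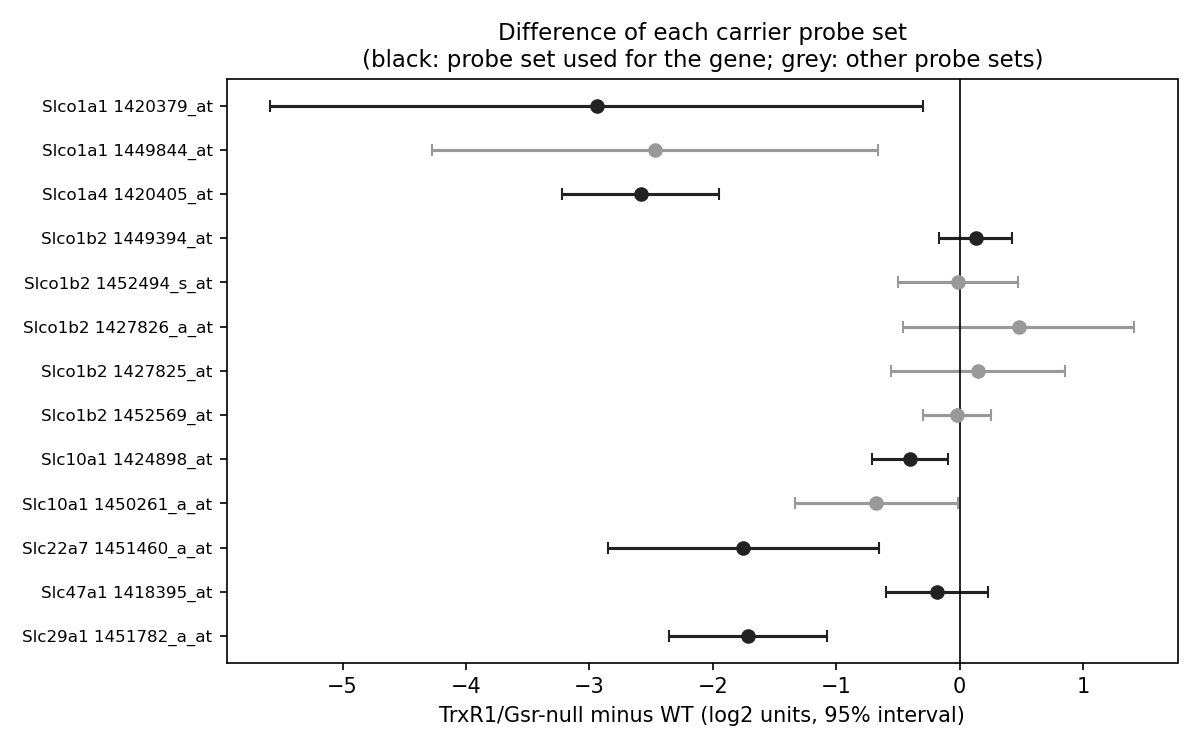
Difference between TrxR1/Gsr-null and WT livers (log2 units, point) with its 95% interval (bar) for all 13 carrier probe sets, from limma over 22626 probe sets without a filter on low values; 4 livers per group. Black marks the probe set used for a gene and grey the others; intervals of Slco1a4 and Slc29a1 lie far below 0, and that of Slco1a1 is the widest.

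Slco1a1 encodes Oatp1a1, a carrier of bile acids and steroid sulfates that in adult mouse liver is known to be male-predominant. Its brighter probe set was at 6.30, 7.15, 9.82 and 4.93 in WT replicates 1 to 4 and at 2.85, 2.83, 7.25 and 3.51 in TrxR1/Gsr-null replicates 1 to 4. Replicate 3 was the highest liver of both groups, and TrxR1/Gsr-null replicate 3 lay above 3 of the 4 WT livers, so the groups overlapped. The means were 7.05 ± 2.06 and 4.11 ± 2.12 (SD, n = 4 each), 7.68-fold lower in the TrxR1/Gsr-null livers, and the gene was not called (difference -2.94 ± 1.14 SE, limma adjusted p = 0.16). The interval of the difference, from -5.48 to -0.40, was the widest of the 7 carriers.

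The second Slco1a1 probe set, 1449844_at, ranked the livers alike within WT, with 5.12, 5.78, 7.71 and 4.02, and was at 2.55, 2.27, 5.07 and 2.85 in the TrxR1/Gsr-null livers. Its difference was -2.47 (limma adjusted p = 0.159 over all probe sets). The low-value limit of 3.38 was not reached by 2 TrxR1/Gsr-null livers at the brighter and 3 at the second probe set, where values say little about level.

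In all 4 pairs of livers with the same replicate number Slco1a1 was lower in the TrxR1/Gsr-null liver, with differences of -3.45, -4.32, -2.58 and -1.42 log2 units for replicates 1 to 4. With the replicate number as a block, Slco1a1 was called lower (limma adjusted p = 0.00765), and so was its second probe set (adjusted p = 0.013). With replicates 1 and 2 against 3 and 4 as the block, neither was called (adjusted p = 0.099 and 0.0889). Livers of different numbers within replicates 1 and 2, or within 3 and 4, deviated together as much as livers of the same number did, with correlations of 0.2 to 0.4 beside 0.21 to 0.37, and livers from 1 or 2 against 3 or 4 gave negative correlations. Deviations from a group mean cancel within the group, so positive correlations with some livers force negative ones with others. The negative values are thus no separate observation. The block of replicate numbers also called Slc22a7 lower (adjusted p = 0.00668), which gave 4 carriers called lower in place of 2. Without TrxR1/Gsr-null replicate 3, the difference of Slco1a1 was -3.99 and the gene was called (adjusted p = 0.048). The TrxR1/Gsr-null livers left in that fit lay between 2.83 and 3.51, about the low-value limit of 3.38, so no fold is given. Without WT replicate 3 the fold of Slco1a1 was 4.05 (adjusted p = 0.341), with 2 TrxR1/Gsr-null livers below the limit. Without replicate 3 of both groups, a setting chosen after the data were seen, the difference was -3.06 (adjusted p = 0.0292). That setting leaves out the highest Slco1a1 liver of each group, so its call is no separate result. Within replicates 1 and 2 alone the difference was -3.88 (adjusted p = 0.00237), and within replicates 3 and 4 alone -1.998 (adjusted p = 0.53). The TrxR1/Gsr-null values of replicates 1 and 2 were below the low-value limit, where values say little about level.

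The spread of Slco1a1 within groups, a pooled SD of 2.09 log2 units, was exceeded by 1 of the other tested genes, Igfbp5 at 2.47, and the next largest was that of Hsd3b5 at 2.05. Hsd3b5, a male-predominant steroid reductase of mouse liver, was also the tested gene with the pattern most like that of Slco1a1 over the 8 livers, by the root mean square difference of values centred on each gene's mean. That difference was 0.61 log2 units for Hsd3b5 and 1.49 for the next gene, Ccl27a, against a median of 2.40 over all tested genes. Hsd3b5 values were 4.26, 5.65, 8.12 and 3.01 in WT and 2.37, 2.27, 6.27 and 2.95 in TrxR1/Gsr-null livers, highest in replicate 3 of both groups, and it was not called (limma adjusted p = 0.382). These 3 genes were named after their values were seen.

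**Figure D3:**
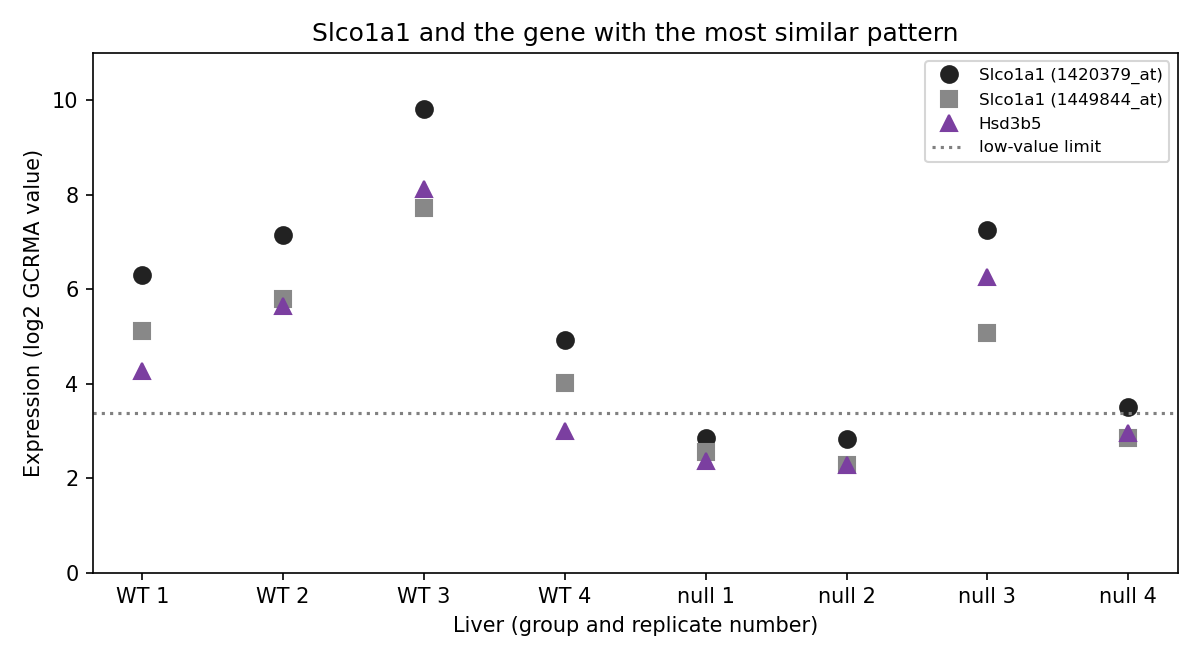
Log2 expression in each of the 8 livers (4 WT, then 4 TrxR1/Gsr-null, by replicate number) of the 2 Slco1a1 probe sets and of Hsd3b5, with the low-value limit of 3.38 as a dotted line. Replicate 3 is the highest liver of each group for all of them, and the remaining TrxR1/Gsr-null livers lie near or below the limit.

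Other male-predominant liver genes were called in both directions. Of 27 listed genes 14 were tested, with 2 called higher and 2 lower and a median difference of -0.61. Cyp7b1, an oxysterol hydroxylase of the alternative bile acid pathway, rose 5.27-fold (limma adjusted p = 0.000457), and Cyp4a12a, a fatty acid hydroxylase, was called higher (adjusted p = 0.00663). Cyp4a12a was below the low-value limit in all 4 WT livers, with a mean of 2.19, and at 4.65, 4.85, 5.54 and 7.55 in the TrxR1/Gsr-null livers, through which it entered the test; the difference was 3.46, and 2.83 without TrxR1/Gsr-null replicate 4. Egfr, the epidermal growth factor receptor, fell to 0.332 of its WT level and C8b, a complement protein, to 0.36 (adjusted p = 0.0174 and 0.0356). The call of Egfr was lost when TrxR1/Gsr-null replicate 1, 2 or 4 or WT replicate 3 was left out, and that of C8b without any 1 array other than TrxR1/Gsr-null replicate 3.

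Of 35 female-predominant genes 23 were tested, with 3 called higher and 1 lower and a median difference of 0.31. Cd36, a fatty acid carrier, rose 7.42-fold and Acot4, an acyl-CoA thioesterase, 1.73-fold (limma adjusted p = 0.000353 and 0.0315), and Acot4 was no longer called without WT replicate 3 or 4 or without any 1 TrxR1/Gsr-null liver. Ly6d, a cell surface protein, was at 2.69 to 3.55 in WT, about the low-value limit, so no fold is given. It was at 9.36 to 10.15 in TrxR1/Gsr-null liver (limma adjusted p = 1.36e-06). Its WT mean of 3.15 was below the limit, so it entered the test through its TrxR1/Gsr-null values. Cyp4a14, a fatty acid hydroxylase, fell to 0.0502 of its WT level (adjusted p = 0.00658), and to 0.0939 without TrxR1/Gsr-null replicate 2, the lowest liver. So called genes of both lists lay on both sides of 0.

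Slc10a1 was at 12.25, 12.50, 12.33 and 12.15 in the WT livers and at 11.82, 12.02, 11.96 and 11.82 in the TrxR1/Gsr-null livers at its brighter probe set. The groups did not overlap, but the distance was small. The means of 12.31 ± 0.15 and 11.91 ± 0.10 (SD, n = 4 each) differed 1.32-fold, and the gene was not called (difference -0.40, 95% interval -0.77 to -0.04, limma adjusted p = 0.18). The hepatocyte markers shifted by a median of -0.32, and those of Kupffer cells and endothelium by -0.49 and -0.38, as given above. A more negative difference than that of Slc10a1 was seen for 12.3% of all tested genes.

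The second Slc10a1 probe set, 1450261_a_at, was at 11.52, 11.96, 12.52 and 12.47 in WT and 10.94, 11.13, 12.002 and 11.70 in TrxR1/Gsr-null livers. Replicates 3 and 4 were higher than 1 and 2 in both groups there, so the groups overlapped. Its difference was -0.68 (limma adjusted p = 0.296 over all probe sets), and with the replicate block it was called lower (adjusted p = 0.046). Each same-number pair was lower in the TrxR1/Gsr-null liver at both probe sets, by differences from -0.49 to -0.33 at the brighter and from -0.83 to -0.52 at the second. At the brighter probe set any pairing would give lower values, since the groups there did not overlap.

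Slc22a7, the carrier of organic anions such as prostaglandins and cyclic nucleotides, was at 7.43, 8.47, 8.37 and 8.55 in WT replicates 1 to 4 and at 4.85, 7.17, 6.98 and 6.81 in TrxR1/Gsr-null replicates 1 to 4. Replicate 1 was the lowest liver of both groups, and the groups did not overlap. The means of 8.20 ± 0.52 and 6.45 ± 1.08 (SD, n = 4 each) differed 3.37-fold, just short of a call (difference -1.75 ± 0.48 SE, limma adjusted p = 0.0594). Without TrxR1/Gsr-null replicate 1 the fold was 2.33 (adjusted p = 0.057), and without WT replicate 1 it was 4.03 (adjusted p = 0.0398, called). The same-number differences were -2.57, -1.31, -1.39 and -1.74, which gave the call with the replicate block stated above.

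Slc29a1, the facilitative carrier of adenosine and other nucleosides, was at 6.25, 7.503, 6.996 and 7.67 in WT and at 5.31, 5.51, 5.54 and 5.22 in TrxR1/Gsr-null livers. The TrxR1/Gsr-null values were tightly grouped below all WT values, among which replicate 1 was the lowest. The mean fell from 7.11 ± 0.64 to 5.39 ± 0.15 (SD, n = 4 each), 3.27-fold lower (difference -1.71 ± 0.29 SE, limma adjusted p = 0.00728). The call held with each array left out in turn, with folds of 2.87 to 3.99. It was lost within replicates 1 and 2 alone (difference -1.47, adjusted p = 0.0804) and without replicate 3 of both groups (difference -1.80, adjusted p = 0.0545).

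Slc47a1, the canalicular exporter, was at 10.38, 10.36, 10.65 and 10.85 in WT and at 10.42, 10.25, 10.73 and 10.09 in TrxR1/Gsr-null livers. The groups overlapped, and TrxR1/Gsr-null replicate 4 was the lowest liver. The difference was -0.18, with a 95% interval from -0.64 to 0.27 (limma adjusted p = 0.642).

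**Figure D4:**
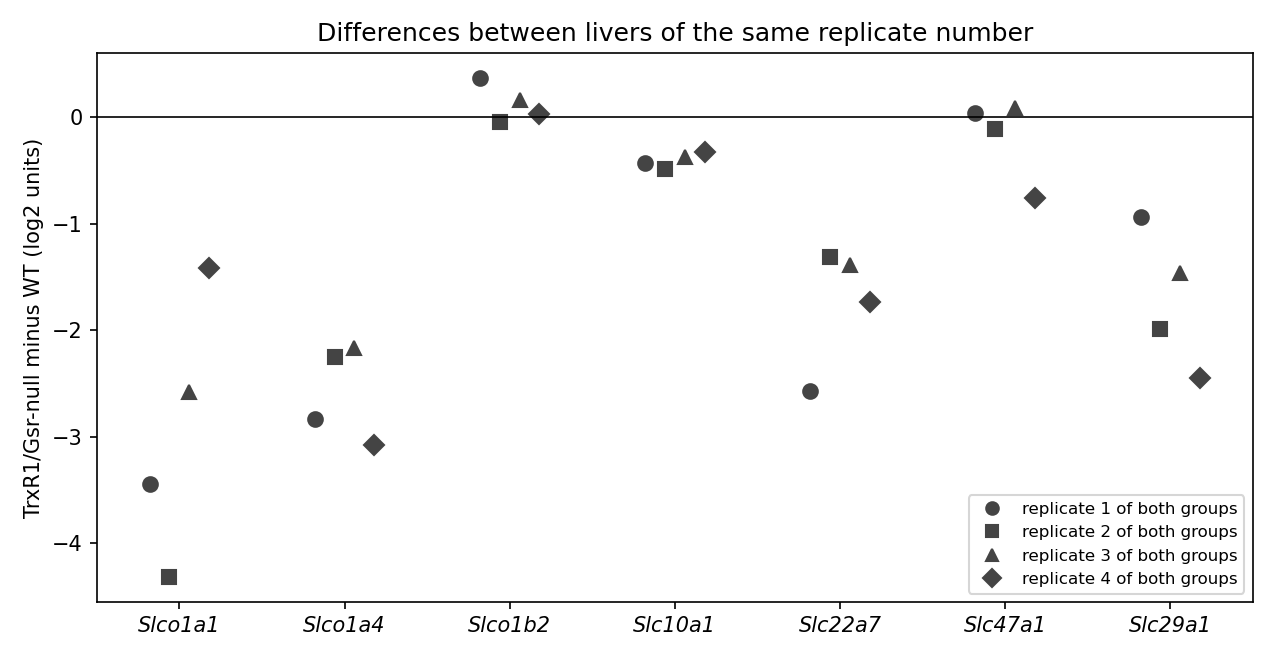
Log2 difference between the TrxR1/Gsr-null and the WT liver of the same replicate number, 4 per carrier (marker shape gives the number; brightest probe set per gene). All 4 differences are below 0 for Slco1a1, Slco1a4, Slc10a1, Slc22a7 and Slc29a1, while those of Slco1b2 and Slc47a1 lie on both sides of 0. For Slco1a4, Slc10a1, Slc22a7 and Slc29a1 any pairing of the livers would give this, since their groups do not overlap. The titles do not say that livers of the same number are paired.

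The genes with a pattern nearest to that of a called carrier were found by the same measure of likeness. For Slco1a4 they were Defb1, a beta-defensin (0.47 log2 units), Cyp2b10, a cytochrome P450 inducible through the receptors CAR and PXR (0.51), and H2-D1, a class I histocompatibility gene of a family with near-identical members (0.53), against a median of 1.45 over all tested genes. All 3 were called lower, which follows from picking them by likeness to a called carrier over the same livers. Cyp2b10 was at 8.38, 9.04, 8.52 and 9.56 in WT and 6.51, 6.42, 6.60 and 5.61 in TrxR1/Gsr-null livers, without overlap. For Slc29a1 the nearest were Vwa8, a mitochondrial protein (0.31), Srebf1, the transcription factor of lipid synthesis (0.33), and Mid1ip1, which activates acetyl-CoA carboxylase (0.38). The median there was 1.07. These 3 were called lower too, again through the way they were picked, so the calls are no separate result.

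The genome neighbours of the called carriers were few in the tested set. Of the 3 nearest genes with a probe set on each side of Slco1a4, only Slco1b2 and Slco1a1 passed the filter on low values. Of the 6 around Slc29a1 on chromosome 17, the 5 that passed, Nfkbie, Slc35b2, Tmem63b, Mrpl14 and Vegfa, had differences from -0.45 to 0.67 and none was called (limma adjusted p from 0.135 to 0.653).

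Among other carriers of the same gene families, 32 of 47 had a probe set and 10 passed the filter, with 2 called higher and 1 lower and a median difference of 0.15. Slc22a4, an organic cation carrier, was called higher (limma adjusted p = 0.00259) with means of 2.61 in WT, below the low-value limit, and 3.79 in TrxR1/Gsr-null liver, and so entered the test through its TrxR1/Gsr-null values. Slc22a5, the carnitine carrier, rose 2.55-fold, from 4.39 ± 0.38 to 5.74 ± 0.48 (SD, n = 4 each; limma adjusted p = 0.0183). Slc22a29 fell to 0.316 of its WT level (adjusted p = 0.0183) at a probe set that can match several transcripts of its near-identical neighbours, so its value is uncertain.

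From a list of 14 exporters, the pumps that move bile acids and organic ions out of hepatocytes, 11 were tested, 4 of them called higher and 1 lower, and the median difference was 0.81. Higher calls were thus 80% of the exporters' 5 calls, beside 67.5% of the calls over all genes, and without probe sets ending in _s_at, _x_at or _a_at 2 exporters were called higher. Abcg2 rose 3.63-fold and Abcc3, the basolateral pump of conjugated bile acids, 2.96-fold (limma adjusted p = 0.000174 and 0.000529). Abcc5 was at 2.71 in WT, below the limit in all 4 livers, and at 6.46 in TrxR1/Gsr-null liver (adjusted p = 1.34e-05), so it entered the test through its TrxR1/Gsr-null values. Abcc6 fell to 0.319 of its WT level (adjusted p = 0.0214), which was no longer called without WT replicate 4, without TrxR1/Gsr-null replicate 1 and without TrxR1/Gsr-null replicate 3.

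None of the 22 tested nuclear receptors and other factors known to act on these carriers was called in limma, and 7 of them, or 31.8%, had an unadjusted p below 0.05, beside 22.9% of all tested genes. Their median difference was -0.23. Nr1h4, the bile acid receptor FXR, was at 9.54 ± 0.26 in WT and 9.07 ± 0.19 in TrxR1/Gsr-null liver, and Nr0b2, its target SHP, at 7.86 ± 1.37 and 7.98 ± 0.38 (SD, n = 4 each; adjusted p = 0.185 and 0.931). After quantile normalization 3 of them were called lower.

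Genes inducible through PXR and CAR were called in both directions, 3 higher and 3 lower of 17 tested from 24 listed, with a median difference of -0.46. Cyp2b10 fell to 0.166 of its WT level, Cyp4f15, a cytochrome P450, to 0.266 and Papss2, which makes the sulfate donor, to 0.543 (limma adjusted p = 0.000931, 0.00117 and 0.02). Alas1, the first enzyme of heme synthesis, rose 3.92-fold, Gstm1, a glutathione transferase, 2.05-fold and Aldh1a1, a retinal dehydrogenase, 1.71-fold (adjusted p = 0.00428, 0.00551 and 0.019). The call of Papss2 was lost when TrxR1/Gsr-null replicate 1 or 2 or WT replicate 2 was left out, and that of Aldh1a1 without TrxR1/Gsr-null replicate 1, 2 or 4. Slco1a4 is a known member of this group but was not on that list.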

How the data were processed

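Livers of 4 WT and 4 TrxR1/Gsr-null mice were measured on 1 array each. The deposited table holds 1 log2 value per probe set, made by the authors with GCRMA per the submitters' processing notes; its version is not stated there. That the scale is log2 follows from the range of the values, 0.53 to 14.61.

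Of 22690 probe sets, 64 are controls and 20380 pair with 1 gene; symbols were updated through a RefSeq table (GRCm38.p6; 20351 probe sets matched). Per gene the brightest probe set was kept, with _x_at set aside where another kind existed. Genes among the lowest 40% by mean (limit 3.38) were left out unless 4 arrays exceeded it, which left 7534. The test was limma 3.58.1, run under R 4.3.3 (two-sided, Benjamini-Hochberg over all genes). Other probe sets of a carrier were tested over all 22626 non-control probe sets without that filter. Lists are described by counts, with no set test.

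Members and lists were chosen with earlier results of these data known. Named were all carriers, up to 3 called genes per list and direction (the first 2 where none), and the 3 nearest patterns and neighbours of called carriers. From the cell type marker lists, values of single genes are given for called genes only. On data simulated with these means and spreads, 4 against 4 over 7534 genes, 3% of changes of 0.5 log2 units, 43.4% of changes of 1 and 88.8% of changes of 2 were called, with 5.41% of calls false.

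No 2 arrays were identical (correlations 0.952 to 0.994). Deviations from group means correlated at 0.21 to 0.37 in all 4 same-number pairs. Livers of other numbers within replicates 1 and 2, or within 3 and 4, correlated at 0.2 to 0.4. These values therefore do not single out same-number pairs, and the titles give replicate numbers only. The main fit has no pairing, and the block of replicate numbers was run as an alternative. Alternatives were the filter, the probe set, the scaling, the replicate block, subsets of arrays and the variance model. The number of arrays limits the precision. Lists of other cell types were also averaged over each array: bile duct 2.81 to 3.06 in WT and 2.73 to 3.05 in TrxR1/Gsr-null livers, Kupffer cell 8.1 to 8.8 and 7.8 to 8.38, endothelium 7.36 to 7.79 and 7.08 to 7.51, stellate cell 6.68 to 7.01 and 6.35 to 7.04, lymphocyte 2.67 to 2.75 and 2.52 to 2.87, and erythroid 3.53 to 3.91 and 3.39 to 3.95. Of the 2 tested bile duct markers, Epcam was called higher (difference 0.94, limma adjusted p = 0.041). Its WT mean of 2.93 was below the low-value limit, so it entered the test through its TrxR1/Gsr-null values. The call was lost without WT replicate 1, 3 or 4 or TrxR1/Gsr-null replicate 1, 2 or 4. No tested Kupffer cell, endothelial, stellate or erythroid marker was called.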

Additional observations from a re-analysis of the deposited data

Results flagged for a closer look

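Among 26 groups of 4 livers (13 carrier probe sets, 2 genotypes), 3 held a liver whose gap to the nearest other liver exceeded, as a share of the group's range, Dixon's 95% critical value for 4 values, which chance does in about 1 group in 20. The Slco1a1 value of TrxR1/Gsr-null replicate 3 (7.25 at the brighter probe set) stood above the other 3 livers of its group, with a share of 0.847. The Slc22a7 value of WT replicate 1 (7.43) stood below the rest of its group with a share of 0.84, and that of TrxR1/Gsr-null replicate 1 (4.85) below the rest of its own with 0.847.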

How the results depend on the processing

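Across the alternatives run, the difference of Slco1a4 was lower and called in 22 of 22 (-2.74 to -2.30), and that of Slc29a1 in 19 of 21. Slco1b2 and Slc10a1 (brighter probe sets) kept their sign and were never called, and Slc47a1 was never called. Slc22a7 and Slc29a1 could not be fitted without probe sets ending in _s_at, _x_at or _a_at, since each has only such a probe set. The call of Slco1a1 was made in 5 of 22 alternatives and that of Slc22a7 in 6 of 21. Unless another reason is given, the cause was not tested.

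Filters and probe sets. Without a filter on low values, 1 male-predominant gene was called lower, as with the mean of all probe sets of a gene. With the lowest 60% of genes left out, 0 other SLC carriers and 1 male-predominant gene were called higher, fewer genes being tested. Without probe sets ending in _s_at, _x_at or _a_at, 1 carrier, 0 other SLC carriers and 1 male-predominant gene were called lower and 2 exporters higher.

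Scaling. Quantile normalization moved the median difference of all genes from 0.10 to -0.01 and gave 313 genes called higher and 271 lower. It called Slc22a7 (difference -1.89, adjusted p = 0.0445), 3 nuclear receptors and factors and 2 female-predominant genes lower. With each array centred on its median, 2 nuclear receptors and factors were called lower.

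The replicate block, taken as pairing livers of the same number, called 4 carriers lower in place of 2 (Slco1a1 -2.94 and Slc22a7 -1.75, with the probe sets 1449844_at of Slco1a1 at -2.47 and 1450261_a_at of Slc10a1 at -0.68). It called 454 genes higher and 240 lower, with 1 nuclear receptor or factor in each direction and 2 female-predominant genes lower, and changed no call of the other carriers. A block of replicates 1 and 2 against 3 and 4 gave 647 genes higher and 334 lower, and called Slc22a7 (-1.75, adjusted p = 0.0312), not Slco1a1 (adjusted p = 0.099), and 1450261_a_at (-0.68, adjusted p = 0.027). Of the lists it called 5 female-predominant genes and 1 nuclear receptor or factor higher, and 2 exporters, 1 nuclear receptor or factor and 5 PXR and CAR genes lower.

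Subsets, which also have fewer arrays. In replicates 1 and 2 only, Slco1a1 (-3.88; second probe set -3.04) and the Slco1b2 probe set 1427826_a_at (1.18, higher) were called and Slc29a1 (-1.47) was not. Of the lists 1 other SLC carrier was called higher, and 0 other SLC carriers, 1 nuclear receptor or factor, 5 PXR and CAR genes and 4 male-predominant genes lower. In replicates 3 and 4 only, 162 genes were called higher and 30 lower, with Slc22a7 (-1.56) called. There 0 other SLC carriers and 0 PXR and CAR genes were higher, and 0 other SLC carriers, 0 exporters, 1 PXR and CAR gene and 0 male-predominant genes lower. Without both WT replicates 3 and 4, 187 genes were higher, 1427826_a_at was called (1.14), and Slc47a1 differed by 0.005 in place of -0.18. Of the lists 1 other SLC carrier was higher, and 0 other SLC carriers, 0 exporters, 2 nuclear receptors or factors and 2 female-predominant genes were lower.

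Without replicate 3 of both groups, an alternative chosen after seeing the data, 155 genes were higher and 60 lower, Slco1a1 (-3.06) was called and Slc29a1 (-1.80) was not. Then 1 other SLC carrier and 1 male-predominant gene were higher, and 0 other SLC carriers, 0 exporters, 1 male-predominant gene and 0 female-predominant genes lower.

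Leaving out each array in turn gave 196 to 387 genes higher and 75 to 134 lower, with 2 to 3 carriers lower and 0 higher. The differences ranged from -3.99 to -2.02 for Slco1a1, from -2.01 to -1.22 for Slc22a7 and from 0.21 to 0.96 for 1427826_a_at. Lower calls ranged from 0 to 1 among exporters, 0 to 2 among nuclear receptors and factors, 0 to 3 among male-predominant and 1 to 2 among female-predominant genes, and higher calls from 0 to 1 among nuclear receptors and factors.

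Array weights gave 578 genes higher and 428 lower and called Slco1a1 (-3.75, second probe set -2.92). They called 5 female-predominant genes higher, and 2 exporters, 4 nuclear receptors and factors, 6 male-predominant and 3 female-predominant genes lower. A trended, robust prior gave 390 higher and 212 lower and called Slc22a7 (-1.75, adjusted p = 0.0456). Probe sets near the low-value limit of 3.38, such as those of Slco1a1 in TrxR1/Gsr-null liver, carry little signal over background, and a fold from them is limited by that.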

Other observations

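The tested genes with a pattern over the 8 livers nearest to that of Slc22a7, which had just missed a call, were Vnn3, a vanin, Slc37a4, the glucose-6-phosphate carrier of the endoplasmic reticulum, and Ulk1, an autophagy kinase, at root mean square differences of 0.42, 0.45 and 0.51 log2 units against a median of 1.24 over all tested genes. Vnn3 fell by 1.68 log2 units and Ulk1 by 1.81 (limma, adjusted p = 0.0204 and 0.0116), the call of Vnn3 being lost without replicate 3 of either group, and Slc37a4 had a difference of -1.07 (adjusted p = 0.214). These genes were looked up after the values of Slc22a7 were seen. They were picked for likeness to it over the same livers, so their lower values are no separate result.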
